A study of Mus musculus with 20 samples.

Results

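The interferon pathway was examined at the level of its signalling parts, as 9 genes taken by exact symbol out of the 21509 protein-coding genes in each of 2 deposited expression tables. They were the ligand Ifnb1, the receptor chains Ifnar1, Ifnar2 and Ifngr1, the kinases Jak1 and Tyk2, and the transcription factors Stat2, Irf9 and Irf1. All 9 were found in both tables. The cells were DC2, an immortalized mouse line derived from principal cells of the distal caput epididymis, the segment in which sperm begin their maturation outside the testis. In the siRNA experiment, 4 libraries came from cells treated with siRNA against Ift88, a gene for an intraflagellar transport protein needed to build primary cilia, and 4 from cells treated with control siRNA. According to the study's methods, the Ift88 siRNA was a mixture of several siRNAs from a supplier other than that of the scrambled control, and both groups were exposed to flow. In the flow experiment, 6 libraries came from cells whose labels name no siRNA, kept under shear stress of 1 dyne/cm² for 3 h (flow) and 6 from cells kept without it (static). All libraries came from 1 line, and the labels do not say which libraries came from separate cultures, so the p-values measure only the spread between these libraries. Replicate 6 of the flow group is a flow library by its title but static by its treatment field, and it was counted as flow.

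Type I interferons such as interferon beta, the product of Ifnb1, bind a receptor made of the chains IFNAR1 and IFNAR2. The kinases TYK2 and JAK1, held by these chains, then activate STAT proteins. STAT2 joins with IRF9 and a further STAT in a complex that binds interferon-stimulated response elements in the promoters of target genes. Interferon gamma uses a separate receptor built from IFNGR1 and IFNGR2, with JAK1, and IRF1 is a factor that this branch induces. Stat2, Irf9 and Irf1 are themselves known targets of interferon in many cells.

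The promoters of the genes for the 3 transcription factors are printed because the members of this pathway are often targets of it. That of Ifnar2 is printed as well, the only gene outside these 3 with a match to a motif searched. Each line gives the 250 bases before a RefSeq start site on GRCm38.p6, 5′ to 3′ along the gene, with a match to a motif in capitals. The motif searched for the interferon-stimulated response element was GAAA, 2 bases of any kind and GAAA again, and that for the STAT element bound after interferon gamma was TTCNNNGAA, both on either strand. For Irf9 and Irf1, which have 2 start sites each in the table, the first is shown.
Stat2 promoter, chr10:128270248-128270497, + strand: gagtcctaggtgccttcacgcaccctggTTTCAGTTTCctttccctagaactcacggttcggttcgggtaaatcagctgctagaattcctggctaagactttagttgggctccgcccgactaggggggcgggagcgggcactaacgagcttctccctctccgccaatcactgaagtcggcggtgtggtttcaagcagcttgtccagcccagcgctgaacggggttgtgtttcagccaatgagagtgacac
Irf9 promoter, chr14:55603735-55603984, + strand: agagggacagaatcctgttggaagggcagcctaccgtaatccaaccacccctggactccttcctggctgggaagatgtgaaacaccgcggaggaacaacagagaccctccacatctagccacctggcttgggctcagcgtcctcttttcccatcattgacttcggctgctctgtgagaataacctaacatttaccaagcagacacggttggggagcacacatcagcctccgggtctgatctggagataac
Irf1 promoter, chr11:53769764-53770013, + strand: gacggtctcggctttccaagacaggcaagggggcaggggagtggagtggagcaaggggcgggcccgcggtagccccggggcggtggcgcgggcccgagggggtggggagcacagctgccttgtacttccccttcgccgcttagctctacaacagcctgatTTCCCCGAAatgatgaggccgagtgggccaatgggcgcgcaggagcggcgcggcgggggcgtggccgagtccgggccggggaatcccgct
Ifnar2 promoter, chr16:91372533-91372782, + strand: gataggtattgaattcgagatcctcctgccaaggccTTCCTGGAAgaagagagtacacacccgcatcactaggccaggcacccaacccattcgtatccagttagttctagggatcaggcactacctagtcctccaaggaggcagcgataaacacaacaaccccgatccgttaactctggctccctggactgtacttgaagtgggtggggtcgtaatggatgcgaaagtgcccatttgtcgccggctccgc
RefSeq gave 11 start sites for the 9 genes. The GAAA pair was found at 1 of the 11, in Stat2, where the minus strand holds the match and the printed strand reads TTTCAGTTTC from base -222 to base -213, counted from the start site. Of the 32851 mouse promoter windows of the same length in the table, 2.98% held this motif. TTCNNNGAA was found at 2 of the 11, as TTCCCCGAA from base -90 to base -82 in Irf1 and as TTCCTGGAA from base -214 to base -206 in Ifnar2, against 7.02% of all windows. A match describes the letters in the window and is not evidence of binding.

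The deposited values are TPM, transcript levels that are corrected for transcript length and sum to 1000000 in each library. They can therefore be compared between genes within a library, but they hold no read totals, so the counting error behind each value is unknown. Between 15292 and 16682 genes were above 0 in each library. Of 5 epithelial markers, Krt18 and Krt19 were above 1 TPM on average in every group, Cdh1 was between 0.765 and 1.16 TPM, Krt8 between 0.420 and 0.536 TPM, and Epcam was at 0 in all control siRNA libraries and averaged at most 0.117 TPM elsewhere. Lcn9, Crisp1 and Cst11, markers of epididymal principal cells, were at 0 in all libraries. Of 9 markers of immune cells, only Cd68, a lysosomal protein gene, reached a mean of 1 TPM in any group.

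The receptor for interferon gamma and the shared kinase were the most abundant of the 9 mRNAs, and the ligand was close to 0. In control siRNA libraries the mean level ran from Ifngr1 (248.4 ± 11.3 TPM, SD, n = 4) to Jak1 (157.3 ± 5.07), Ifnar1 (53.7 ± 4.78), Ifnar2 (24.4 ± 1.24), Irf1 (15.6 ± 2.98), Tyk2 (8.91 ± 0.771), Stat2 (8.40 ± 0.173) and Irf9 (2.17 ± 0.561). In this order the ranges of neighbours overlapped for Tyk2 and Stat2 and for no other pair. With Ift88 siRNA the order was the same except that Stat2 (11.99 ± 2.18 TPM, n = 4) stood above Tyk2 (9.50 ± 1.38), and the ranges of Irf1, Stat2 and Tyk2 overlapped with their neighbours. In static libraries Ifngr1 (130.6 ± 16.8 TPM, n = 6) and Jak1 (94.9 ± 12.9) again led, while Ifnar2 (43.8 ± 3.11), Ifnar1 (38.2 ± 4.95) and Irf1 (32.01 ± 4.65) overlapped with their neighbours, as did Stat2 (14.7 ± 3.16), Tyk2 (11.2 ± 1.90) and Irf9 (7.20 ± 1.72). Under flow the order was that of the static libraries, and the ranges of Ifngr1 and Jak1 overlapped as well.

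The balance of receptor chains and of kinases differed between the experiments in every library, and that of Stat2 and Irf9 overlapped. Ifnar1 was between 2.02 and 2.47 times the level of Ifnar2 in the 8 siRNA libraries and between 0.715 and 1.15 times in the 12 flow and static libraries. Jak1 was between 16.5 and 23.2 times the level of Tyk2 in siRNA libraries and between 6.94 and 10.8 times in the others. Stat2 was between 2.91 and 7.39 times the level of Irf9 in siRNA libraries and between 1.34 and 3.23 times in the others. The 2 experiments are separate tables with transfection in one of them, so the table, the transfection and the day of work cannot be told apart, and no test was made between them.

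In the siRNA experiment the question was which genes respond when ciliogenesis is blocked under flow. Ift88 itself was at 4.21, 4.08, 4.15 and 4.12 TPM with control siRNA and at 1.71, 1.27, 1.28 and 0.917 TPM with Ift88 siRNA. It was lower in all 4 treated libraries, with a log2 fold change of -1.17 (SE 0.13, limma adjusted p = 0.00212). Levels were compared as log2(TPM + 1), a scale that understates changes of low genes, and a gene was called when its adjusted p was under 0.05 and its change exceeded 1.5-fold. Of the 9 interferon pathway genes, 8 had a mean of at least 1 TPM and were tested. None of the 8 was called by limma, where 0.223% of all 11209 genes tested were called, and 1 of 8 had an unadjusted p under 0.05, against 13.9% of all genes. Their log2 fold changes ran from -0.15 to 0.45 with a median of 0.084, against a median of 0.017 over all genes tested.

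**Figure D1:**
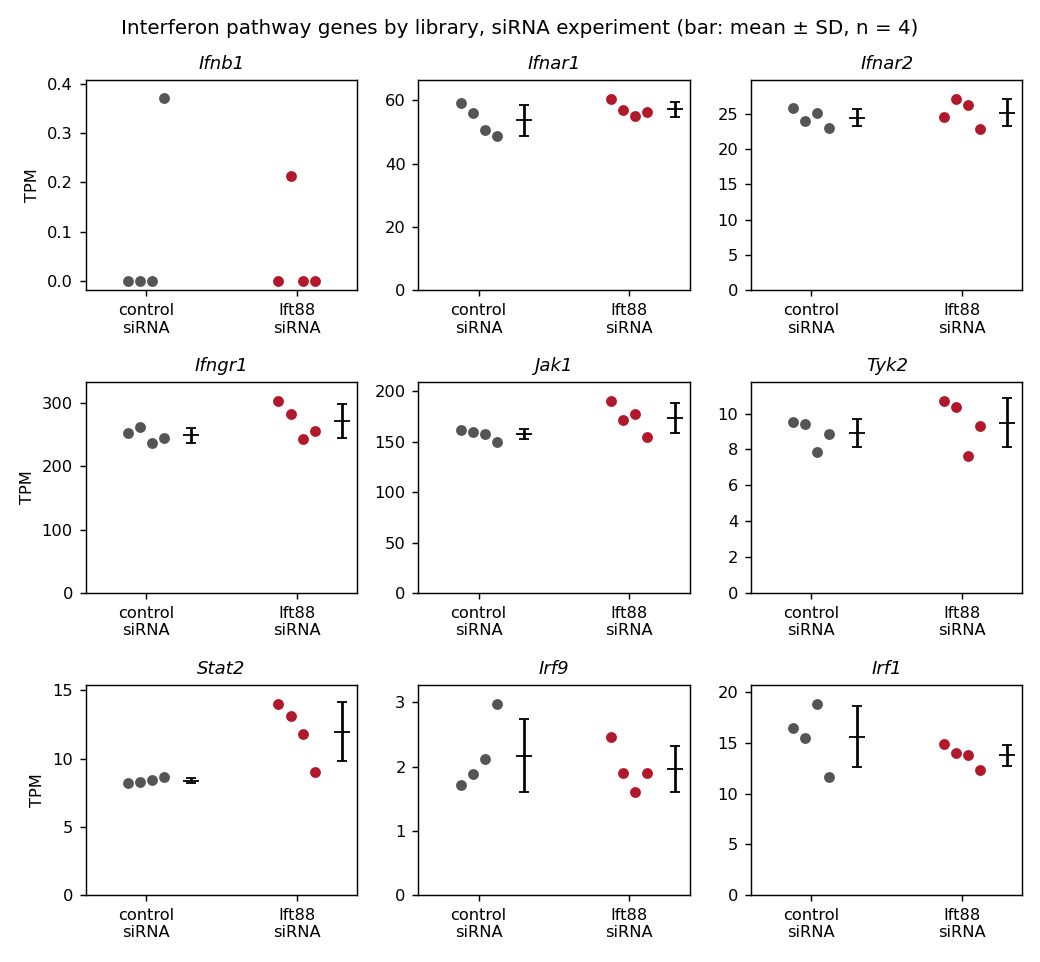
Level of each of the 9 genes in TPM (vertical axes, linear, starting at 0 except for Ifnb1) in each library with control siRNA (grey) and Ift88 siRNA (red), left to right by replicate number. Bars to the right of the points are mean ± SD, n = 4 per group, and are left out for Ifnb1. The 4 Stat2 points with Ift88 siRNA lie between 9.01 and 14.0 TPM, above the 4 control points at 8.26 to 8.64 TPM, and in every other panel the groups overlap.

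Stat2 was the 1 gene whose groups did not overlap, which 8.58% of all genes tested also showed. Its level was 8.26, 8.29, 8.41 and 8.64 TPM with control siRNA and 14.0, 13.1, 11.8 and 9.01 TPM with Ift88 siRNA. All 4 treated libraries were above all 4 controls, and replicate 4 of the treated group was the nearest to them. The log2 fold change was 0.45 (SE 0.13, 95% interval 0.18 to 0.72, limma unadjusted p = 0.00333), and the adjusted p of 0.135 did not reach the threshold. By unadjusted p, Stat2 ranked 277 of 11209 genes. Without Ift88 siRNA replicate 4 the log2 fold change was 0.57 and the limma adjusted p 0.0367, which passed the p threshold, yet the change stayed under 1.5-fold. Over all alternatives the adjusted p ran from 0.0277 to 0.350. Libraries with Ift88 siRNA also had more genes above 0, between 15713 and 16682 against 15292 to 15382 with control siRNA. The part of this difference in the Stat2 result was not tested.

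Irf9, the DNA-binding partner of STAT2, showed no such separation of the groups. It was at 1.71, 1.89, 2.11 and 2.97 TPM with control siRNA and at 2.46, 1.90, 1.60 and 1.90 TPM with Ift88 siRNA. The groups overlapped, and the log2 fold change was -0.09 (95% interval -0.42 to 0.25, limma adjusted p = 0.851). The sign rested on 1 library, since without control siRNA replicate 4 the log2 fold change was 0.026. The level of Stat2 divided by that of Irf9 in the same library was 4.84, 4.39, 3.99 and 2.91 with control siRNA and 5.69, 6.89, 7.39 and 4.75 with Ift88 siRNA. The lowest treated library thus lay below the highest control library. Over the 8 siRNA libraries the correlation of Stat2 with Irf9 on the log2(TPM + 1) scale was r = -0.0024, whereas that of Stat2 with Jak1 was r = 0.883, both including the difference between groups.

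Irf1, a transcription factor of the interferon gamma branch, was at 16.4, 15.4, 18.8 and 11.6 TPM with control siRNA. It was at 14.9, 14.0, 13.8 and 12.3 TPM with Ift88 siRNA, within the range of the controls. The log2 fold change was -0.15 (95% interval -0.43 to 0.13, limma adjusted p = 0.639).

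The receptor chains and kinases lay within narrow intervals that include 0. For Ifnar1, control siRNA libraries held 59.2, 55.9, 50.7 and 48.8 TPM and Ift88 siRNA libraries 60.5, 56.9, 54.9 and 56.3 TPM, with a log2 fold change of 0.09 (95% interval -0.07 to 0.25). For Ifnar2, the other chain of the type I receptor, the values were 25.8, 23.9, 25.1 and 22.9 TPM with control siRNA and 24.5, 27.1, 26.2 and 22.8 TPM with Ift88 siRNA, which gave a log2 fold change of 0.04 (95% interval -0.14 to 0.22). The groups overlapped for both chains. For Ifngr1, the ligand-binding chain for interferon gamma, the levels were 252.0, 262.2, 236.0 and 243.6 TPM with control siRNA. With Ift88 siRNA they were 302.0, 282.8, 243.4 and 255.0 TPM, with a log2 fold change of 0.12 (95% interval -0.03 to 0.27).

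Jak1, the kinase shared by both branches, was at 162.0, 159.3, 157.8 and 150.2 TPM with control siRNA and at 190.0, 171.3, 177.0 and 154.5 TPM with Ift88 siRNA. Only treated replicate 4 fell within the control range, and the log2 fold change was 0.13 (95% interval -0.01 to 0.28, limma adjusted p = 0.394). Tyk2, the kinase held by IFNAR1, was at 9.51, 9.43, 7.84 and 8.87 TPM against 10.7, 10.4, 7.62 and 9.30 TPM, and its log2 fold change was 0.08 (95% interval -0.18 to 0.33). The limma adjusted p of the 3 receptor chains and 2 kinases lay between 0.394 and 0.878. The upper ends of these 5 intervals were all under the 1.5-fold limit, so a rise of that size in any of them lay outside its 95% interval.

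**Figure D2:**
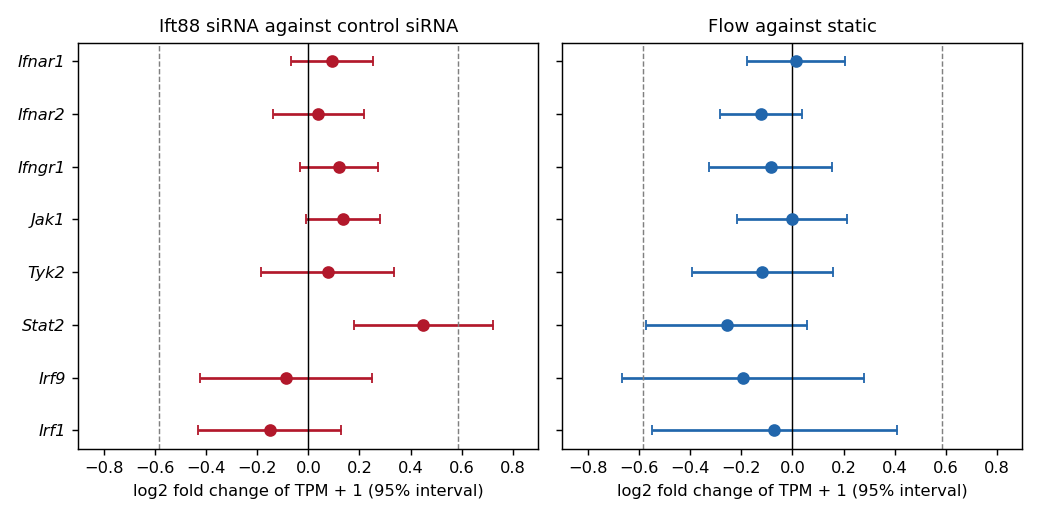
Log2 fold change of TPM + 1 (horizontal axes) with 95% intervals from limma for the 8 tested genes (rows), for Ift88 siRNA against control siRNA (left, n = 4 per group) and flow against static (right, n = 6 per group). Dashed lines mark a 1.5-fold change. Of the 16 intervals, only that of Stat2 with Ift88 siRNA, 0.18 to 0.72, excludes 0.

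The ligand Ifnb1 was near 0 in both experiments and did not pass the filter. It was above 0 in 1 of 4 libraries with Ift88 siRNA (0.213 TPM) and in 1 of 4 with control siRNA (0.372 TPM). An exact two-sided permutation test of log2(TPM + 1) gave p = 1. For untied values the smallest p of 4 against 4 libraries is 0.0286, but most values here were tied at 0, which put it out of reach. Under flow it was above 0 in 3 of 6 libraries (0.116, 0.133 and 0.366 TPM), and in static cells in 1 of 6 (0.117 TPM). The difference in means was 0.10 on the log2 scale, and the exact permutation test gave p = 0.303. For untied values the smallest p of 6 against 6 libraries is 0.00216, which the values tied at 0 again put out of reach. With so many ties neither permutation test could give a p under 0.05. Without read totals, a value of 0 cannot be turned into an upper limit, and a difference in Ifnb1 mRNA was not detectable here. Of 15 other interferon genes on a list of the wider pathway, 9 in each table were at 0 in all its libraries, and none reached a mean of 1 TPM in either table.

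Among the other genes of the pathway, those called with Ift88 siRNA were downstream targets. The list held 93 further genes sorted by role, of which 91 were in the tables and 55 were tested in the siRNA experiment. Of these, 7 were called higher and 0 lower, against 0.152% and 0.0714% of all genes, and all 7 were among 29 tested targets. The median log2 fold change of the 29 targets was 0.45, against 0.017 over all genes, and all 29 had a higher mean with Ift88 siRNA. The list and its roles were compiled with earlier results of these data known, so the count is no independent evidence of a direction.

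The 7 targets included genes of the antiviral and chemokine response. Ccl5, which encodes a chemokine that attracts T cells, was at 71.9, 71.5, 65.7 and 53.6 TPM with control siRNA and at 154.9, 147.7, 176.5 and 172.0 TPM with Ift88 siRNA. Its groups were far apart, with a log2 fold change of 1.30 (limma adjusted p = 5.01e-05). Ifih1, which encodes the double-stranded RNA sensor MDA5, was at 9.48 ± 1.31 TPM (SD, n = 4) against 5.55 ± 0.879 TPM in controls, with a log2 fold change of 0.68 (limma adjusted p = 0.0480). Gbp7, a guanylate-binding protein gene, was at 4.09 ± 0.549 TPM in treated libraries and 1.99 ± 0.274 TPM in controls (log2 fold change 0.77, limma adjusted p = 0.0241). Oasl1, a gene of the oligoadenylate synthetase-like family, had a log2 fold change of 1.01 (limma adjusted p = 0.0238). Ifit1, Ifit2 and Isg15, whose products act against viral RNA or are attached to proteins, had log2 fold changes of 0.97, 0.62 and 0.79. When each of the 8 libraries was left out in turn, Ccl5, Ifit1 and Isg15 were called in 8 of 8 fits, Ifit2 in 5, Oasl1 in 3, and Ifih1 and Gbp7 in 1 each.

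The genes that stand beside or restrain the receptors gave no call. Of 2 tested receptor chains, 1 kinase, 5 STATs, 4 interferon regulatory factors and 14 inhibitors outside the 9 genes, 0 were called by limma, and 6 of these 26 had an unadjusted p under 0.05, against 13.9% of all genes, namely 3 STATs, 1 interferon regulatory factor and 2 inhibitors. The factor was Irf7, a regulator of interferon genes, whose level averaged 5.83 ± 0.921 TPM in treated and 4.00 ± 1.12 TPM in control libraries (log2 fold change 0.47, limma adjusted p = 0.220). Socs1, an inhibitor of JAK kinases, averaged 5.73 ± 0.761 TPM in treated and 6.21 ± 0.536 TPM in control libraries (log2 fold change -0.10, limma adjusted p = 0.745).

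**Figure D3:**
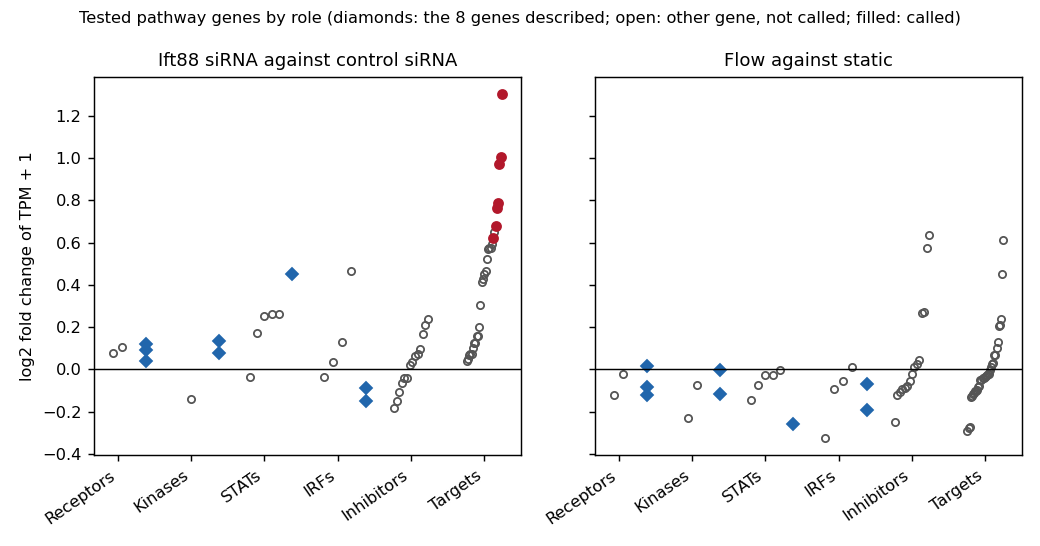
Log2 fold change of TPM + 1 (vertical axis) of the tested pathway genes by role (horizontal axis), for Ift88 siRNA against control siRNA (left) and flow against static (right). Each open or filled circle is 1 gene of the wider list, filled where it was called, and diamonds are the 8 genes described here. With Ift88 siRNA the 7 filled circles all stand among the targets, at 0.62 to 1.30, and Stat2 at 0.45 is the highest diamond, whereas under flow no circle is filled and Stat2 at -0.26 is the lowest diamond.

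Ifnar2, Il10rb, Ifnar1 and Ifngr2 form a cluster of receptor genes on the plus strand of mouse chromosome 16, at chr16:91372783-91405589, chr16:91406164-91425834, chr16:91485238-91507441 and chr16:91547072-91565623 in GENCODE M21 on GRCm38. Il10rb encodes a chain of the interleukin 10 and type III interferon receptors. With control siRNA its level was 90.3 ± 3.61 TPM and with Ift88 siRNA 97.3 ± 2.63 TPM, and the groups did not overlap. The log2 fold change was 0.11 (95% interval -0.02 to 0.23, limma adjusted p = 0.435). That of Ifngr2 was 0.08 (95% interval -0.06 to 0.21), so the 4 neighbours had log2 fold changes between 0.04 and 0.11. Under flow the same genes had log2 fold changes between -0.12 and 0.01.

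In the flow experiment the question was which genes respond to shear stress. None of the 8 tested genes was called by limma, where 0.105% of all 11388 genes tested were called, and none had an unadjusted p under 0.05, against 3.85% of all genes. With the replicate block, 1 of the 8, Stat2, had one, against 11.1% of all genes, and again none was called. The log2 fold change was below 0 for 7 of the 8 and above 0 for Ifnar1, with a median of -0.10, against -0.026 over all genes. For Irf1 it was below 0 although the mean TPM was slightly higher under flow, at 32.41 against 32.01. The groups overlapped for every one of the 8, where 0.544% of all genes showed no overlap.

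Stat2 had the lowest fold change of the 8. Static libraries held from 11.9 to 19.2 TPM with a median of 13.1, and flow libraries from 9.05 to 14.4 TPM with a median of 12.8. The log2 fold change was -0.26 (SE 0.15, 95% interval -0.57 to 0.06, limma unadjusted p = 0.101, adjusted p = 0.998). Flow and static libraries of the same number deviated together, and within these pairs Stat2 was lower under flow in 5 of 6, by 0.03 to 0.49 on the log2 scale, and higher in pair 2. A limma fit that blocked on the pair gave a 95% interval of -0.46 to -0.06, an unadjusted p of 0.0166 and an adjusted p of 0.334, still short of a call, in a fit that called 0.597% of all genes. Replicates 1 to 3 alone gave a log2 fold change of -0.14, and replicates 4 to 6 alone gave -0.37.

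Irf9 and Irf1 varied more between flow libraries than between static ones. Irf9 was between 5.28 and 9.87 TPM in static libraries (median 7.002) and between 3.00 and 10.4 TPM under flow (median 5.81), and the coefficient of variation was 23.8% and 41.0%. It was lower under flow in 5 of 6 pairs, and the log2 fold change was -0.19 (95% interval -0.67 to 0.28). It was -0.33 without flow replicate 2, -0.029 without flow replicate 4 and -0.44 with library weights. Irf1 was between 25.1 and 36.6 TPM in static libraries (median 33.7) and between 19.6 and 51.4 TPM under flow (median 30.0), with coefficients of variation of 14.5% and 41.9%. The 3 lowest and the 3 highest Irf1 values of the experiment thus came from libraries counted as flow. The highest was that of replicate 6, whose treatment field says static, and with it counted as static the Irf1 log2 fold change was -0.32 (limma adjusted p = 1.00). In pairs 1, 3 and 4 Irf1 was lower under flow, by 0.25, 0.61 and 0.47 on the log2 scale, and in pairs 2, 5 and 6 it was higher, by 0.17, 0.21 and 0.52. The log2 fold change was -0.07 (95% interval -0.55 to 0.41). The difference in spread was not tested.

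**Figure D4:**
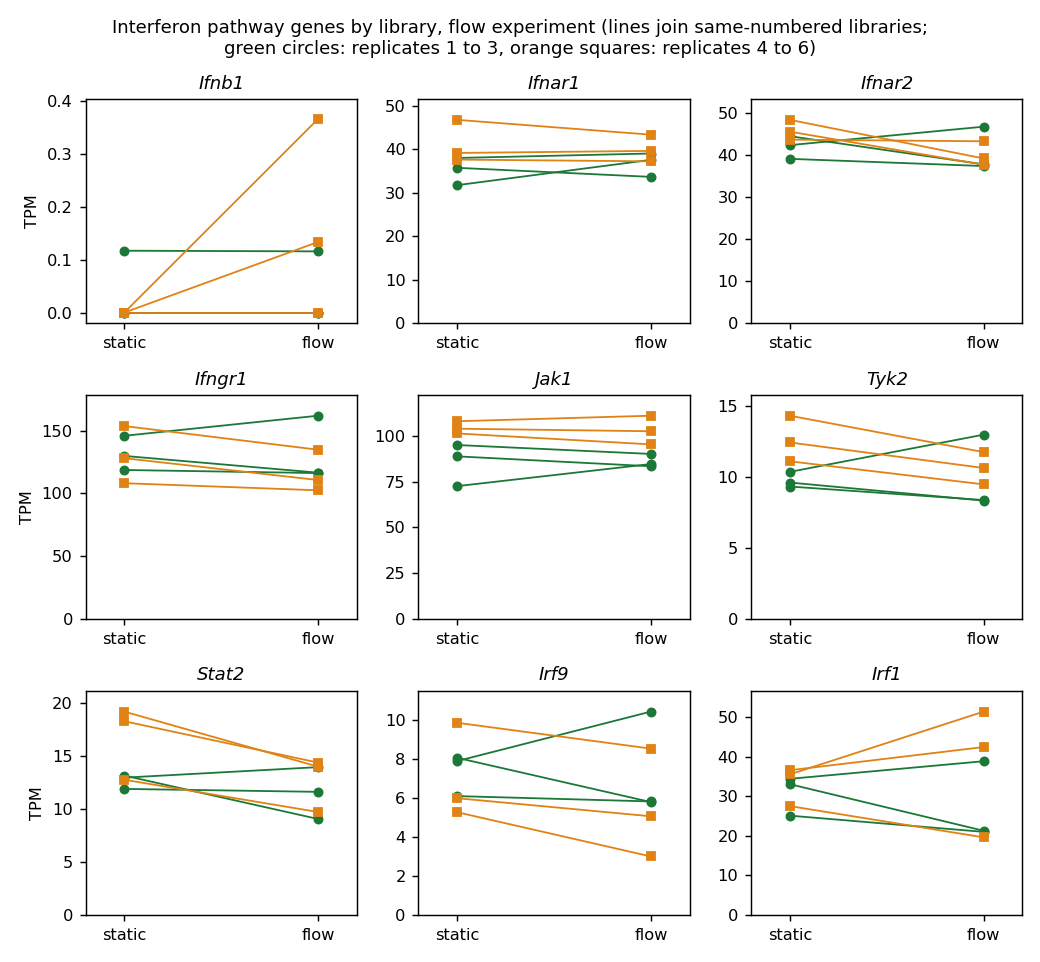
Level of each of the 9 genes in TPM (vertical axes, linear, starting at 0 except for Ifnb1) in static and flow libraries, with lines joining libraries of the same replicate number, green circles for replicates 1 to 3 and orange squares for replicates 4 to 6. Stat2 is lower under flow in 5 of 6 pairs, and Irf1 is lower in 3 and higher in 3.

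The receptor chains and kinases overlapped widely between flow and static. Ifnar1 ran from 31.7 to 46.8 TPM in static libraries and from 33.7 to 43.4 TPM under flow, with a log2 fold change of 0.01 (95% interval -0.18 to 0.20). Ifnar2 ran from 39.0 to 48.3 TPM in static libraries and from 37.3 to 46.7 TPM under flow, with a log2 fold change of -0.12 (95% interval -0.28 to 0.04). Ifnar1 was higher under flow in 3 of 6 pairs and Ifnar2 in 1. Ifngr1 ran from 108.1 to 153.6 TPM in static libraries and from 102.4 to 161.8 TPM under flow, with a log2 fold change of -0.08 (95% interval -0.32 to 0.15).

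Jak1 ran from 72.6 to 108.0 TPM in static libraries and from 83.4 to 111.0 TPM under flow, with a log2 fold change of -0.0020 (95% interval -0.22 to 0.21), whose sign changed with the scaling and with single libraries left out. Tyk2 ran from 9.34 to 14.3 TPM in static libraries and from 8.35 to 13.0 TPM under flow, with a log2 fold change of -0.12 (95% interval -0.39 to 0.16). For the receptor chains and kinases the intervals lay between -0.39 and 0.21, inside a 1.5-fold change in either direction, whereas those of Irf9 and Irf1 were wider.

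Of the 93 further genes of the pathway, 62 were tested in the flow experiment and 0 were called by limma. An unadjusted p under 0.05 was found for 5 of the 62, against 3.85% of all genes. They were the inhibitors Socs1 and Socs3, the repressor gene Irf2bp2 and the targets Cxcl10 and Ifih1, each with a higher mean under flow. Socs1 was between 1.17 and 1.84 TPM in static libraries and between 1.37 and 5.20 TPM under flow, with a log2 fold change of 0.57 (limma adjusted p = 0.998). Irf2bp2, which encodes a partner of IRF2, was between 18.4 and 23.5 TPM in static libraries and between 23.5 and 55.6 TPM under flow, the groups meeting at 23.5 TPM without overlap, with a log2 fold change of 0.63 (limma adjusted p = 0.545). Cxcl10, a chemokine gene, was between 187.6 and 322.0 TPM in static libraries and between 226.6 and 556.5 TPM under flow, with a log2 fold change of 0.61 (limma adjusted p = 0.817). With the replicate block the limma adjusted p of these 3 genes was 0.287, 0.0844 and 0.165, and 12 of the 62 had an unadjusted p under 0.05, against 11.1% of all genes. With flow replicate 6 counted as static, the log2 fold changes of Socs1 and Irf2bp2 were 0.24 and 0.37. Within replicates 1 to 3 those of Socs1, Irf2bp2 and Cxcl10 were 0.11, 0.31 and 0.27, and within replicates 4 to 6 they were 1.03, 0.96 and 0.95.

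The genes most like Stat2, Irf9 and Irf1 were ranked by Pearson's r of log2(TPM + 1), centred on the mean of each table, over the 20 libraries and 10895 genes tested in both tables. The libraries share cell line and handling within each table, and r is given as a description. For Stat2 the 5 genes were Dmap1 (r = 0.918), Phf1, Erlec1, Lin52 and Ctc1 (r = 0.869), none of which is on the interferon list. For Irf9 they were H2-K1 (r = 0.894), a class I histocompatibility gene, then Ccdc77, Ptgds, Irf7 and Atp8b3 (r = 0.803). The likeness of Irf9 to Irf7 came from the flow experiment, with r = 0.887 over its 12 libraries and r = 0.203 over the 8 siRNA libraries. The same was so for Ptgds and Atp8b3, with r = -0.058 and r = -0.17 over the siRNA libraries. For Irf1 they were Pla1a (r = 0.889), Atosb, Scamp5, Ltbp3 and Cc2d2a (r = 0.840). Within the flow experiment Stat2, Irf9 and Irf1 were positively correlated over the 12 libraries, with r = 0.548 for Stat2 and Irf9, 0.716 for Stat2 and Irf1, and 0.624 for Irf9 and Irf1. In the 8 siRNA libraries the same 3 values were -0.0024, -0.17 and -0.33.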

How the data were processed

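RNA-seq of DC2 cells gave 20 libraries, grouped by their labels. The authors deposited TPM per gene, with 1 table per experiment. The submitters' processing notes name fastp 0.20.0, FastQC 0.11.8, MultiQC 1.8 and kallisto 0.46.2, and the study's methods name Trimmomatic, the Ensembl transcriptome and tximport. TPM are not counts, so no count model was used, and depth is unknown. From the TPM, log2(TPM + 1) was computed, and each table was fitted alone with lmFit and trended eBayes (limma 3.58.1, R 4.3.3). Genes entered at a mean of 1 TPM or more, and Benjamini-Hochberg adjustment covered all that entered. Simulated libraries with 200 genes shifted by 1 log2 unit were used to test the fit. It recovered 97.5% of the 200 in the siRNA design (11158 genes) and 91.0% in the flow design (11325 genes). That shift exceeded every log2 fold change of the tested genes among the 9. The largest was 0.45, for Stat2 with Ift88 siRNA. Recovery of smaller changes was not tested, so these rates do not measure the power to detect them. Ifnb1 was compared with a two-sided exact permutation test (scipy 1.17.1). Flow and static libraries with the same number deviated together (correlation over genes of the deviations from group means 0.294, 0.463, 0.425, 0.468, 0.662 and 0.600 for replicates 1 to 6), so these numbers were taken to pair the libraries. Replicate 3 was an exception in that its flow library did not match best with the static library of its own number. Alternatives covered the filter, the pseudocount, the scaling, library weights, the replicate block, the label of flow replicate 6, replicates 1 to 3 and 4 to 6 apart, and each library left out. All 9 genes were to be named with their values, as were pathway genes that were called and, for each transcription factor, the 5 genes most like it. Il10rb, Ifngr2, Irf7, Socs1 and the 5 pathway genes named under flow fall outside this rule and were chosen after their values were seen. The 9 genes, the wider list and the roles were chosen with earlier results of these data known. Positions are from GENCODE M21 on GRCm38, older than the authors' annotation. Other steps ran in Python 3.11.15 with pandas 2.3.3, numpy 2.4.6 and matplotlib 3.10.9.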

Additional observations from a re-analysis of the deposited data

Results flagged for a closer look

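Of 36 groups of values, 1 for each gene and group, 4 held a library far from the others by Dixon's criterion, and all 4 were of Ifnb1, where most libraries were at 0. They were Ift88 siRNA replicate 2 (0.213 TPM), control siRNA replicate 4 (0.372 TPM), flow replicate 6 (0.366 TPM) and static replicate 2 (0.117 TPM). Chance alone marks about 1 in 20 groups. The other 8 genes had no such library in any group.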

How the results depend on the processing

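No setting tried called any of the 8 tested genes in either comparison. The limma adjusted p of Stat2 with Ift88 siRNA was under 0.05 only with library weights (0.0277) and without Ift88 siRNA replicate 4 (0.0367), and leaving out 1 library gave log2 fold changes of 0.37 to 0.57. Of the alternative values of single genes, 118 of 119 with Ift88 siRNA and 183 of 208 under flow kept their sign, and none became a call. The filter, the replicate block and the fold threshold leave a log2 fold change as it is, so no sign could change through them. With Ift88 siRNA, Irf9 ran from -0.17 to 0.026 when 1 library was left out and changed sign without control siRNA replicate 4. Under flow, Ifnar1 was -0.0039 with library weights and -0.0044 with flow replicate 6 counted as static, and ran from -0.036 to 0.073 with 1 library left out. Ifngr1 was 0.014 with flow replicate 6 counted as static. Jak1 was 0.029 with median-of-ratios scaling, 0.015 without pair 6 and 0.018 within replicates 1 to 3, and ran from -0.076 to 0.037 with 1 library left out. Irf1 ran from -0.22 to 0.048 and Irf9 from -0.33 to -0.029 with 1 library left out. With library weights Irf1 was -0.38 and Ifngr1 -0.20. Within replicates 4 to 6, Ifnar1 was -0.035 and Irf1 0.087. The cause of these changes was not tested, and all lie inside the 95% intervals of the values reported. The 7 pathway genes called higher with Ift88 siRNA became 2 without the filter on low TPM (82 genes of the list tested in place of 55). With 1 library left out they ran from 3 to 8, with 3 without Ift88 siRNA replicate 1 or control siRNA replicate 4, and 4 without Ift88 siRNA replicate 2 or control siRNA replicate 1 or 3. Under flow, Cxcl10 alone of the list was called higher with library weights or without flow replicate 2.

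In the siRNA experiment same-numbered libraries had deviations that correlated at 0.0464, 0.00276, 0.259 and 0.176, and 2 of 4 numbers matched best with their own, so they share only a number. With the replicate block, which called 0.393% of all genes, 8 pathway genes were called higher, and the log2 fold change of Stat2 was 0.45 (limma adjusted p 0.0935). Under flow the block changed no call of the 8 genes or of the wider list. Blocks fitted to part of the pairs were added after seeing the data. They gave the values above for Ifnar1, Jak1 and Irf1, and within replicates 4 to 6 called 3 genes of the list higher, Cxcl10, Socs1 and Irf2bp2, against 1.11% of all genes. In that fit 5 of the 8 genes had an unadjusted p under 0.05, against 20.5% of all genes, all with a lower mean under flow, and the limma adjusted p of Stat2 was 0.0835. Depth is unknown, so no counting error can be given.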
